A study of Homo sapiens with 12 samples.

Results

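RB1, RBL1, CDKN1A and PTTG1 are 4 cell cycle genes among the 770 genes of a NanoString tumour progression panel, which counts fluorescent barcodes on probes bound to single transcripts. They were chosen by name, with their group means after heteronemin, tetrac and both compounds already known, so their differences from control are described here and no test is claimed for them. HCT-116 is an established human colorectal carcinoma line, and the 12 samples fall into 4 groups of 3: cells given heteronemin, a sponge sesterterpenoid, for 24 h, cells given tetrac, a deaminated analogue of thyroxine, cells given both, and control cells. The study's title asks whether the compounds act against proliferation through the EGF receptor. Neither cell number nor protein was measured on the panel, and the sources used here give no dose or vehicle and do not say whether the samples of a group were separate cultures. All groups come from 1 cell line, so the results describe that line.

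The retinoblastoma protein, encoded by RB1, and its relative p107, encoded by RBL1, bind E2F transcription factors and hold back the genes of DNA replication until cyclin-dependent kinases phosphorylate them. CDKN1A encodes p21, an inhibitor of those kinases, so that high p21 keeps RB1 and RBL1 in their active form. PTTG1 encodes securin, which holds separase inactive until sister chromatids part in anaphase, and its transcript is most abundant in dividing cells. RBL1 is itself an E2F target gene in mammalian cells. PTTG1 has close intronless copies, PTTG2 and PTTG3P, and whether the probe tells them apart was not tested.

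The bases upstream of 3 of the genes are shown because RBL1 and PTTG1 had the lowest ratios of the 4 genes after heteronemin, and CDKN1A is the contrast. They come from RefSeq's GRCh38.p14 promoter table, which holds a window for all 4 genes, and each is the 250 bases before the listed transcript start on the gene's strand. Capitals mark matches, on either strand, to 4 sets of letters: TTTNNCGC for E2F, CCAAT for NF-Y, TTTGAA for the cell cycle homology region and GGGCGG for SP1.
RBL1, chr20:37095998-37096247, minus strand: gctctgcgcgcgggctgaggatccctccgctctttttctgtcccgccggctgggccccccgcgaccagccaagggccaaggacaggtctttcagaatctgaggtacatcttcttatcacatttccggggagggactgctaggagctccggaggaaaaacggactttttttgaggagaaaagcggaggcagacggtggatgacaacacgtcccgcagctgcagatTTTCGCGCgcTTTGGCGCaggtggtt
PTTG1, chr5:160421605-160421854, plus strand: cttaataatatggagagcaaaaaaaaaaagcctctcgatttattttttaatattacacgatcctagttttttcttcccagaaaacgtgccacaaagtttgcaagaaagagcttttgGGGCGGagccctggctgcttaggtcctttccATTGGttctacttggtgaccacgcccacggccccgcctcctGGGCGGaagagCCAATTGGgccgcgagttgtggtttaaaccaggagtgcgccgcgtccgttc
CDKN1A, chr6:36678464-36678713, plus strand: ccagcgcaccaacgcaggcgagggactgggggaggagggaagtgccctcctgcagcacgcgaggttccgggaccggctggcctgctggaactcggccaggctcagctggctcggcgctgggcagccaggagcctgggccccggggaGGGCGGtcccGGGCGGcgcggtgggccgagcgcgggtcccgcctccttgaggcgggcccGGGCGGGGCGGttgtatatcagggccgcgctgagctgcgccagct

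The RBL1 window held 2 matches to the E2F letters, with first bases at -26 and -16 from the start, and those letters occur in 5.93% of 27305 windows of the same length, 1 per gene, and in 6.82% of the windows of panel genes. The PTTG1 window held 3 matches to CCAAT, of which those at -51 and -48 overlap on opposite strands, and 2 to GGGCGG, and a second listed start of PTTG1 gave the same counts. CCAAT occurs in 33% of the windows and GGGCGG in 42.3%, and among the 557 windows of panel genes in 32.3% and 61.2%. The CDKN1A window held 4 matches to GGGCGG, 2 of which overlap, and 0 to the other letters. TTTGAA, present in 13.6% of all windows and 10.1% of those of panel genes, had 0 matches in the 3 windows shown. The windows listed for CDKN1A and RB1 lie at starts inside the annotated span of the gene rather than at its first base. That of RB1 held 0 matches to any of the 4 sets of letters and is not shown. It lies inside the gene, so the bases before the first base of RB1 were not searched. A match describes letters in a window and says nothing about binding.

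The panel showed a tilt with level that bears on every value below. The sum of the authors' means was 280484 after heteronemin, 306898 after tetrac, 297671 after both and 333810 in control, while the housekeeping geometric mean lay between 296.1 and 299.6. Among the 356 genes with a mean over the 4 groups of 100 or more, the median log2 ratio over control was -0.19 after heteronemin, -0.11 after tetrac and -0.15 after both. For the 84 genes at 800 or more it was -0.39, -0.16 and -0.25 in the same order. Of 30 housekeeping genes, 8 fell and 2 rose after heteronemin in the authors' deposited table. Among the epithelial markers, 7 of 9 were measured and stood above the floor of 33 in all groups, though KRT7 was close to it in control, at 34.1. CDH1 and ST14 fell and KRT7 rose after heteronemin, and ST14 fell and KRT7 and CLDN7 rose after both. Of 12 measured markers of endothelium, blood and stroma, 8 were at that floor in control, PTPRC, KDR and COL3A1 among them. The 6 stromal genes summed to 422.0 after heteronemin, 290.6 after tetrac, 348.4 after both and 232.4 in control, the 4 endothelial genes to 183.4, 154.7, 157.9 and 132.3 and the 2 blood genes to 125.8, 90.9, 115.3 and 68.6, with COL1A1 and CD34 called higher after heteronemin. Low values were higher over the whole panel: 70 genes were at the floor after heteronemin, 61 after tetrac and 90 after both, against 279 in control, and the 128 genes whose mean level lay between 50 and 100 had median log2 ratios of 1.08, 0.40 and 0.54. The part of these markers in the results was not tested.

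RB1 and RBL1, the pocket proteins that restrain E2F, were both lower than control in all treated groups, by different amounts, except that RBL1 after tetrac was at a log2 ratio of 0.04 once each group was scaled to the same sum over the panel. The authors' mean of RBL1 was 226.5 normalized counts after heteronemin, 376.0 after tetrac, 273.3 after both and 398.6 in control. Heteronemin cells thus held 56.8% of the control level of RBL1 and cells given both held 68.6%, while tetrac cells were at 94.3%. The log2 ratios over control were -0.82 after heteronemin, -0.08 after tetrac and -0.54 after both. In the authors' deposited table RBL1 had a p printed as 0 after heteronemin, which stands for any p below 0.005, and p = 0.65 after tetrac and 0.01 after both. In bulk RNA, less transcript per cell cannot be told apart from fewer cells expressing it.

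RB1 had authors' means of 460.1 after heteronemin, 510.1 after tetrac, 449.9 after both and 586.1 in control. It was the only one of the 4 genes with its lowest mean under the combination, at 76.8% of control, against 78.5% after heteronemin and 87% after tetrac. Its log2 ratios were -0.35, -0.20 and -0.38 for heteronemin, tetrac and both, a narrower range than that of RBL1, and -0.10, -0.08 and -0.22 once scaled to the panel sum. Scaled to the housekeeping geometric mean they were -0.33, -0.20 and -0.37. In the authors' deposited table the p-values of RB1 were 0.02, 0.2 and 0.01 in the same order.

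CDKN1A, the gene of p21, was lower than control in each treated group. Its authors' mean was 1092.8 after heteronemin, 1284.9 after tetrac, 1284.2 after both and 1499.8 in control. Tetrac cells and cells given both therefore had nearly the same mean, at 85.7% and 85.6% of control, and heteronemin cells were lower, at 72.9%. The log2 ratio was -0.46 after heteronemin and -0.22 both after tetrac and after the combination, or -0.21, -0.10 and -0.06 in that order once scaled to the panel sum. Scaled to the housekeeping geometric mean the ratios were -0.44, -0.22 and -0.21. In the authors' deposited table CDKN1A passed p under 0.05 after heteronemin, at 0.02, and not after tetrac (p = 0.19) or both (p = 0.22).

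PTTG1, the securin gene, had the largest absolute difference in means of the 4 genes after heteronemin, 823 normalized counts, though means of different probes are not on one scale. Its authors' mean was 1203.0 after heteronemin, 1889.9 after tetrac, 1294.6 after both and 2025.6 in control. That is 59.4% of control after heteronemin and 63.9% after both, against 93.3% after tetrac. The log2 ratios were -0.75, -0.10 and -0.65 for heteronemin, tetrac and both, and the tetrac value was 0.02 once scaled to the panel sum. The authors' deposited table prints p = 0 for PTTG1 after heteronemin and after both, and 0.3 after tetrac.

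**Figure D1:**
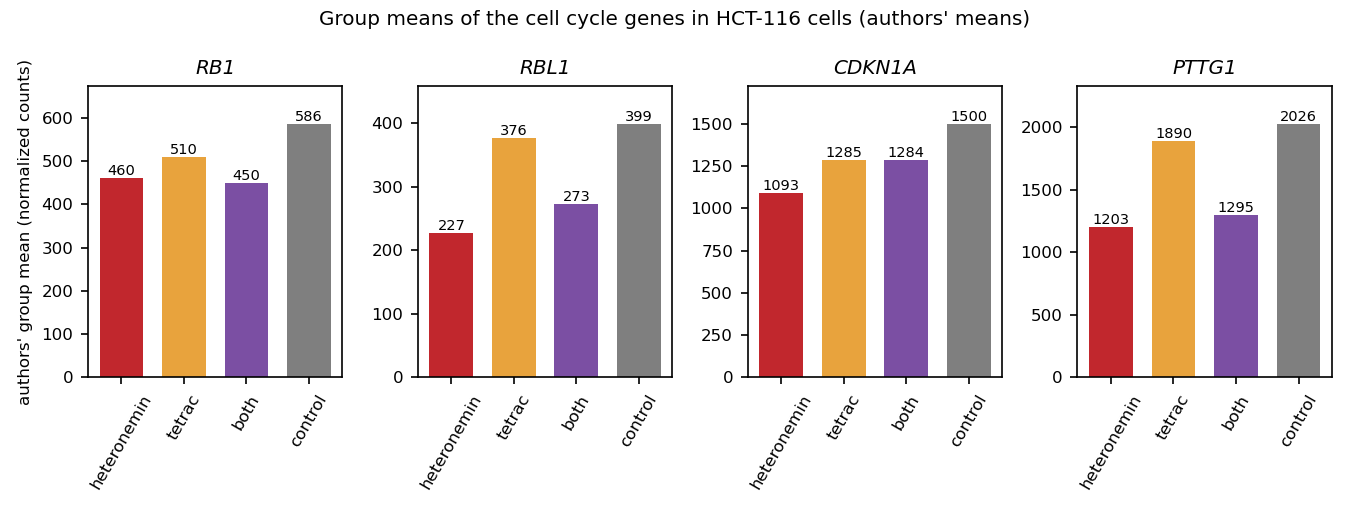
The authors' group means in normalized counts (y axis, from 0, scaled separately for each gene) are drawn as bars for heteronemin, tetrac, both compounds and control; spread between samples was not analysed here. Control is the highest bar for all 4 genes, and RBL1 and PTTG1 show the widest gap between heteronemin and control, at 56.8% and 59.4% of it.

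After heteronemin 4 of the 4 genes fell at the authors' unadjusted p under 0.05, where 15.9% of all tested genes fell, or 28.9% of those whose mean level reached 100. After the combination RB1, RBL1 and PTTG1 fell, as 3 of 4, where 14.1% of tested genes fell, or 25.0% at that level. After tetrac 0 of 4 passed, where 0.980% of tested genes fell, or 1.97% at that level. The genes were chosen on these contrasts, so nothing is read from the counts. The median log2 ratio of the 4 genes was -0.60 after heteronemin, -0.15 after tetrac and -0.46 after both, beside 0.23, 0.07 and 0.17 over all tested genes, many of which started at the floor. After Benjamini-Hochberg adjustment over the whole table, the printed p-values left RBL1 and PTTG1 for heteronemin and PTTG1 for the combination. They left 3.12% and 4.23% of all tested genes on the lower side. A cut at p under 0.01 gave the same genes and shares. Both cuts keep just the genes whose p is printed as 0, so they are not separate criteria. The same genes were at least 1.5-fold lower than control, RBL1 and PTTG1 after heteronemin and PTTG1 after both, as were 4.16% and 4.42% of the panel. With the largest p that rounding allows, 0 of the 4 passed in any table, since the smallest adjusted p reached 0.086 for heteronemin, 0.071 for the combination and 0.657 for tetrac.

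Ranked among the 356 genes whose mean level was at least 100, RBL1 had the 6th lowest ratio after heteronemin and PTTG1 the 9th lowest, while CDKN1A was 63rd and RB1 114th. Under the combination PTTG1 was 17th, RBL1 36th, RB1 68th and CDKN1A 138th from the lowest. The order differed after tetrac, where CDKN1A was 31st and RB1 52nd and PTTG1 and RBL1 lay at 185 and 204.

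**Figure D2:**
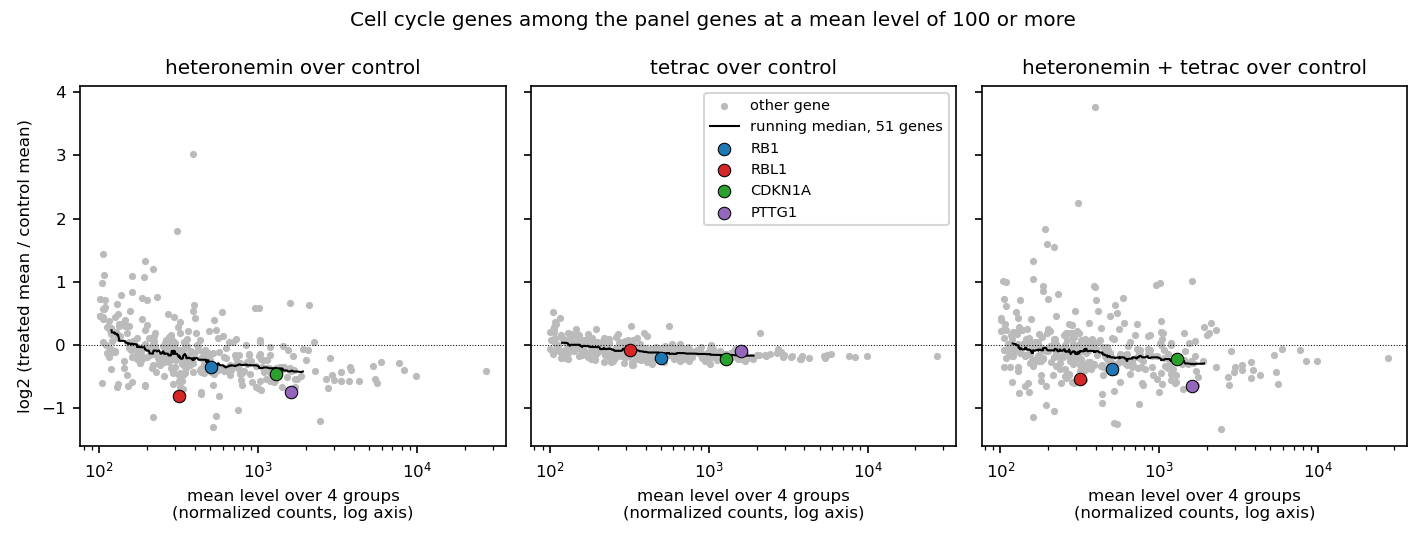
Each point is a gene, with its mean level over the 4 groups on a log x axis in normalized counts and its log2 ratio of treated mean over control mean on the y axis, for the 356 genes at a level of 100 or more; the line is the running median of 51 genes. RBL1 and PTTG1 lie well under the line after heteronemin and both compounds, while RB1 and CDKN1A lie close to it after heteronemin.

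Set against the 51 genes nearest in mean level, the 4 genes separated into pairs after heteronemin. There, 0 of the 51 neighbours of RBL1 and 1 of the 51 neighbours of PTTG1 had a lower log2 ratio. The medians of the neighbours were -0.17 and -0.37. RBL1 lay 0.65 and PTTG1 0.39 below those medians on the log2 scale. Of the neighbours of RB1, 23 were lower, and of those of CDKN1A, 20, so these genes had ratios like those of genes of similar level: RB1 differed from its neighbours' median by -0.06 and CDKN1A by -0.09. Under the combination 4 neighbours of RBL1, 2 of PTTG1 and 9 of RB1 had lower ratios, with differences from the median of -0.45, -0.41 and -0.19. CDKN1A then stood 0.03 above its neighbours' median.

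Tetrac gave a pattern with small values. RB1 and CDKN1A were 0.07 and 0.06 below the median of their neighbours on the log2 scale, with 8 and 7 of 51 neighbours lower. RBL1 was 0.02 below and PTTG1 0.06 above. None of these values can be set against a spread between samples, which was not analysed here.

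**Figure D3:**
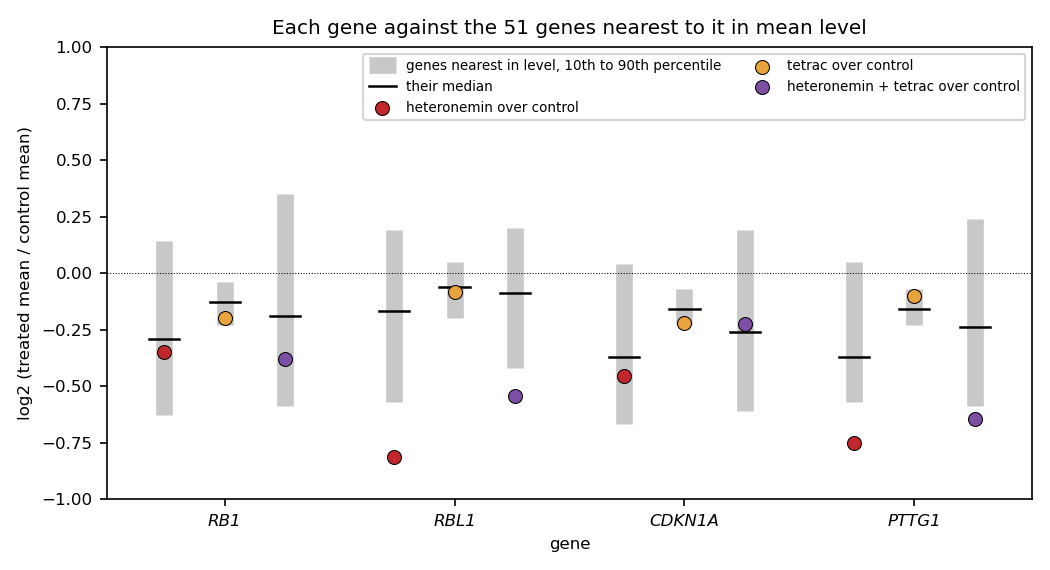
Coloured points give the log2 ratio of treated mean over control mean for each gene and treatment; the grey bar spans the 10th to 90th percentile of the 51 genes nearest in mean level, and the black line is their median. The heteronemin and combination points of RBL1 and PTTG1 fall below their grey bars, and those of RB1 and CDKN1A lie inside theirs.

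The treatments were then set side by side; the deposited comparisons are all against control, so these differences have no test, and the ratios over control share the same control mean. The mean of the combination was 1.21 times that of heteronemin for RBL1, 1.18 times for CDKN1A, 1.08 times for PTTG1 and 0.98 times for RB1. Over the 356 genes at a level of 100 or more, 236 were higher under the combination than under heteronemin, at a median log2 difference of 0.07. RBL1 and CDKN1A were at log2 differences of 0.27 and 0.23 and PTTG1 at 0.11, whereas RB1 was at -0.03.

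The combination against tetrac gave log2 differences of -0.55 for PTTG1, -0.46 for RBL1 and -0.18 for RB1. The median over the 356 genes was -0.04. For CDKN1A the means under the combination and tetrac were 1284.2 and 1284.9. Heteronemin against tetrac gave -0.73 for RBL1, -0.65 for PTTG1, -0.23 for CDKN1A and -0.15 for RB1, beside a median of -0.09 over the 356 genes.

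The log2 ratio of the combination was smaller in size than the sum of the log2 ratios of heteronemin and tetrac for all 4 genes. For CDKN1A the combination stood at -0.22 and the sum at -0.68, a difference of 0.46, and for RBL1 at -0.54 and -0.90, a difference of 0.36. PTTG1 and RB1 differed by 0.21 and 0.17. The same difference had a median of 0.18 over the 356 genes and was above 0 in 265 of them, so PTTG1 and RB1 were near the panel's middle, and CDKN1A ranked 338th and RBL1 302nd from the lowest. When each group was scaled to the same sum over the panel the differences were 0.25 for CDKN1A, 0.15 for RBL1, 0.00 for PTTG1 and -0.04 for RB1. Scaled to the housekeeping geometric mean they were 0.45, 0.35, 0.20 and 0.16 in the same order.

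The panel measured 6 of 34 listed genes of the RB pathway and the passage from G1 to S phase, 3 of them other than the genes above. TFDP1, which encodes DP1, the dimer partner of E2F proteins, had authors' means of 982.2 after heteronemin, 1308.5 after tetrac, 996.8 after both and 1457.7 in control. It fell after heteronemin (log2 ratio -0.57, p = 0.01 in the authors' deposited table) and after both (log2 ratio -0.55, p printed as 0), and these ratios were -0.32 and -0.38 once scaled to the panel sum. RBL2, the gene of the third pocket protein, p130, was at 246.8, 304.1 and 247.6 after heteronemin, tetrac and both, against 296.5 in control. It fell after heteronemin (p = 0.04 in the authors' deposited table), at a log2 ratio of -0.26 that was -0.01 once scaled to the panel sum, and had the same ratio with p = 0.05 after both. CDKN2A, which encodes the CDK4 and CDK6 inhibitor p16, was near the floor in every group, with 51.1, 46.2 and 42.4 after the treatments and 48.4 in control, and did not pass in any table. Of these 3 genes, 2 fell after heteronemin, 0 after tetrac and 1 after both. Among all tested genes, 15.9% fell after heteronemin, 0.980% after tetrac and 14.1% after both. At a mean level of at least 100 these shares were 28.9%, 1.97% and 25.0%. No listed replication gene was measured (0 of 16).

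Of 28 listed genes of mitosis, securin and cohesin, 2 were measured. SMC3, a core subunit of the cohesin ring that separase opens once securin is gone, had authors' means of 644.2 after heteronemin, 838.9 after tetrac, 693.8 after both and 884.5 in control. It fell with PTTG1 in both comparisons: at a log2 ratio of -0.46 after heteronemin (p printed as 0 in the authors' deposited table) and of -0.35 after both (p = 0.03). Scaled to the panel sum, these ratios were -0.21 and -0.19. At a mean level of at least 100, 28.9% of genes fell after heteronemin and 25.0% after both. The 76 genes with a mean level between 400 and 800, SMC3 among them, had median log2 ratios of -0.32 and -0.21.

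Of 21 listed regulators of CDKN1A and genes that often respond to stress with it, 5 were measured. GDF15 and THBS1 had log2 ratios opposite in sign to that of CDKN1A after heteronemin and after both. GDF15, a stress cytokine, was at an authors' mean of 1118.8 after heteronemin, 711.5 after tetrac, 1479.4 after both and 747.7 in control. In the authors' deposited table it rose after both (p = 0.01), at a log2 ratio of 0.98, and had p = 0.06 after heteronemin.

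THBS1, the matrix protein thrombospondin-1, was at 125.8, 91.5 and 129.1 after heteronemin, tetrac and both, against 84.6 in control. It rose after heteronemin (log2 ratio 0.57) and after both (0.61). Its mean level over the 4 groups was 107.7, near the low range where ratios were high over the whole panel. The 128 genes between 50 and 100 had median log2 ratios of 1.08 after heteronemin and 0.54 after both. For the 90 genes between 100 and 200 the medians were 0.09 and -0.01. SP1, a factor that binds the letters GGGCGG, the acetyltransferase EP300 and MYC, a repressor of CDKN1A, did not pass in any table. In all, 0 of the 5 fell and 1 rose after heteronemin, and 0 fell and 2 rose after both, at median log2 ratios of -0.03 and 0.18. After tetrac 0 of 5 passed, at a median of -0.07. Of all tested genes, 11.2% rose after heteronemin, 8.16% after both and 0.280% after tetrac.

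Of 7 listed ID and E proteins, 5 were measured. ID2, whose protein binds the unphosphorylated retinoblastoma protein and its relatives, had authors' means of 351.6 after heteronemin, 722.8 after tetrac, 323.2 after both and 766.2 in control. It fell after heteronemin (log2 ratio -1.12) and after both (-1.25), with p printed as 0 for each in the authors' deposited table. ID1, an inhibitor of E proteins, which switch on CDKN1A, fell too, at log2 ratios of -0.67 and -0.63, or -0.42 and -0.46 once scaled to the panel sum. ID4, TCF3 and TCF4 did not pass in any table, so 2 of 5 fell and 0 rose after heteronemin and after both, and 0 of 5 passed after tetrac. Over all tested genes, 15.9% fell and 11.2% rose after heteronemin, and 14.1% fell and 8.16% rose after both.

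Of 11 listed genes of the TGF-beta and BMP signal, which can raise CDKN1A through SMAD proteins, 9 were measured. Whether that signal works in HCT-116 cells, or reaches CDKN1A in them, was not tested. After heteronemin 4 fell and 0 rose, and after both 5 fell and 0 rose, at median log2 ratios of -0.20 and -0.27, while 0 passed after tetrac. Of all tested genes 15.9% fell after heteronemin and 14.1% after both, and at a mean level of at least 100 these shares were 28.9% and 25.0%, with median log2 ratios of -0.19 and -0.15. The receptor TGFBR2 fell after heteronemin and after both (log2 ratios -0.37 and -0.27, or -0.12 and -0.11 once scaled to the panel sum), and SMAD4, the common partner of the receptor SMADs, fell after heteronemin (-0.19, but 0.06 once scaled to the panel sum). SMAD2, a receptor SMAD, fell after both (-0.38), as did TGFB1, the ligand (-0.39), and each was at -0.22 once scaled to the panel sum. BMP4, a ligand, fell after heteronemin (-1.20, or -0.95 on the panel sum) and after both (-1.32). BMPR2, a receptor, fell after heteronemin (-0.59, or -0.34 on the panel sum) and after both (-0.82). Its authors' means were low, at 43.6 after heteronemin, 56.6 after tetrac, 37.1 after both and 65.7 in control. Those after heteronemin and after both were near the floor, so the size of the BMPR2 ratios is uncertain. SMAD3, which can carry the TGF-beta signal to CDKN1A, had log2 ratios of -0.20, -0.12 and -0.04 after heteronemin, tetrac and both and did not pass.

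Securin has been reported to switch on other genes, and 5 of 6 such genes listed were measured. After both compounds FGF2, a growth factor, and VEGFA, an angiogenic factor, rose at log2 ratios of 0.71 and 0.74, with p = 0.01 for each in the authors' deposited table. After heteronemin their log2 ratios were 0.33 and 0.52 and they did not pass; PTTG1 fell in both comparisons. CXCL8, the gene of interleukin-8, rose in both comparisons from a low control mean of 65.5, and MYC and IL6 did not pass. IL6 was near the floor in every group, at 36.4, 35.3 and 41.0 after heteronemin, tetrac and both and 33.2 in control. Little can be read from its not passing. The list thus had 0 falls and 1 rise after heteronemin, 0 falls and 3 rises after both and 0 calls after tetrac. Median log2 ratios were 0.33 after heteronemin, 0.71 after both and 0.02 after tetrac. Over all tested genes, 15.9% fell and 11.2% rose after heteronemin, and 14.1% fell and 8.16% rose after both. For tetrac these shares were 0.980% and 0.280%. Any link of these genes to PTTG1 was not tested.

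**Figure D4:**
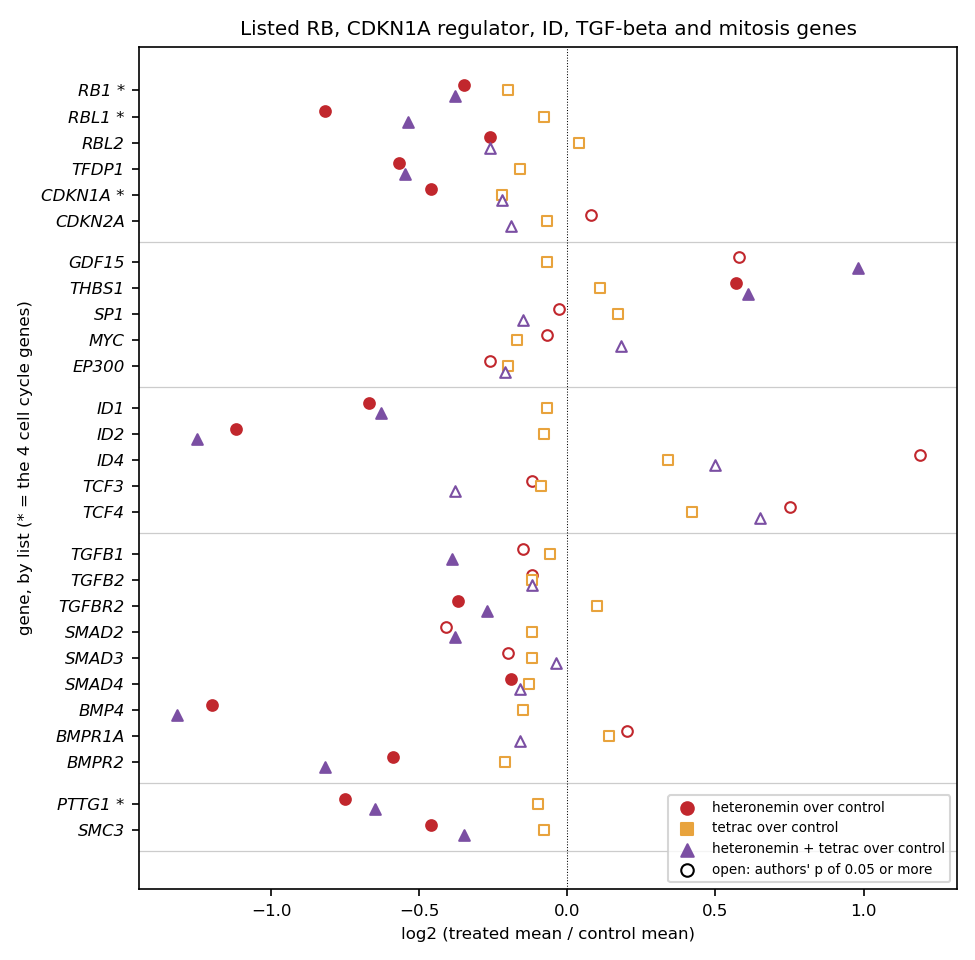
Log2 ratios of treated mean over control mean (x axis) are shown for the measured genes of 5 lists, with filled symbols where the authors' p was under 0.05. The RB pathway and mitosis genes lie mostly to the left of 0 after heteronemin and both compounds, whereas GDF15 and THBS1 lie to the right of it, and all tetrac symbols are open.

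The genes most like each of the 4 were found by the root mean square difference of the 3 log2 ratios over control, among the 356 genes at a level of 100 or more. The 3 ratios share 1 control mean, and likeness over 3 values is a description only. RBL1 and PTTG1 were near each other, at a difference of 0.070, and RBL1 was the third likest gene to PTTG1 and PTTG1 the likest to RBL1. Both had ID1 and KDM1A, a histone demethylase, as their other likest genes: ID1 at 0.095 from RBL1 and 0.049 from PTTG1, and KDM1A at 0.10 and 0.061. KDM1A had authors' means of 818.0 after heteronemin, 1167.4 after tetrac, 866.4 after both and 1334.4 in control.

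RB1 was likest to MYO1D, an unconventional myosin, at 0.012, and the kinase ROCK1, at 0.028, was among its 3 likest genes. CDKN1A was likest to ADD1, a protein of the membrane skeleton, at 0.028, to the sheddase ADAM9 at 0.033 and to the hyaluronan receptor CD44 at 0.035. RB1 and CDKN1A differed from each other by 0.111, and the 4 pairs of either of them with RBL1 or PTTG1 by 0.284 to 0.306.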

How the data were processed

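NanoString counts of 770 genes (740 endogenous, 30 housekeeping) were measured in 12 samples of HCT-116 cells, 3 per group. Raw counts were normalized by the authors with nSolver 4.0, per the series' design text, by a positive control factor per sample and then a biological normalization. The authors deposited 3 tables, 1 per treatment, with a normalized signal per group (the group mean), a signed fold change, here a score, and a p-value printed to 2 decimals. The control means were the same in the 3 tables. Neither the test behind the p-values nor the kind of mean is stated there. Single samples were not analysed here. SDs, intervals and depths are therefore missing, and since the labels do not name separate cultures, the p-values may measure technical spread.

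Log2 ratios of treated over control means were computed, and "fell" or "rose" means the authors' unadjusted p under 0.05. Benjamini-Hochberg adjustment ran over each table, on the printed p and on the largest p that rounds to it. Named genes are the 4 members, the 3 likest genes to each, and called genes of the lists, at most 5 per list and table, with the other measured list genes named where a count needs them. Some other genes that these rules name were left out and are not counted in the lists. The members, lists and alternatives were chosen with earlier results of these data known. All 4 symbols matched RefSeq by accession. Functions were checked on simulated tables. Python 3.11.15, numpy 2.4.6, pandas 2.3.3, scipy 1.17.1 and matplotlib 3.10.9 were used.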

Additional observations from a re-analysis of the deposited data

How the results depend on the processing

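No paired analysis was possible because the tables hold group means, and for the same reason leaving out a replicate was not run. Of 4 genes called after heteronemin, 2 remained at p under 0.01, 2 after Benjamini-Hochberg on the printed p, 2 at a fold of 1.5 or more and 0 with the largest p. The counts for both compounds, 3 at first, were 1, 1, 1 and 0. The cut at p under 0.01 and that on the printed p keep the same genes, those with p printed as 0. Scaled to the housekeeping geometric mean, the log2 ratios of RB1, RBL1, CDKN1A and PTTG1 were -0.33, -0.80, -0.44 and -0.73 after heteronemin. Minus the median of genes above the floor in control, they were -0.28, -0.74, -0.39 and -0.68. Neither alternative moved a ratio of the 4 genes by 0.1 or more in any table, whereas the panel sum added 0.25 after heteronemin. Scaled to the panel sum, the log2 ratios of RB1, RBL1, CDKN1A and PTTG1 were -0.10, -0.56, -0.21 and -0.50 after heteronemin, -0.08, 0.04, -0.10 and 0.02 after tetrac, and -0.22, -0.38, -0.06 and -0.48 after both. On that scale the excess of the combination over the sum of the single compounds was -0.04, 0.15, 0.25 and 0.00. Minus the median of neighbours in mean level they were -0.06, -0.65, -0.09 and -0.39 after heteronemin, -0.07, -0.02, -0.06 and 0.06 after tetrac, and -0.19, -0.45, 0.03 and -0.41 after both. Mean level includes the treated values; with neighbours in control level, an alternative chosen after seeing the data, they were -0.08, -0.61, -0.08 and -0.33, then -0.08, 0.01, -0.06 and 0.06, then -0.20, -0.45, 0.05 and -0.35. Subtracting the floor of 33 gave RBL1 -0.92 after heteronemin. A move of 0.1 or more on the log2 scale is given here, as no spread was at hand, and 62 of 107 alternative values moved less or kept their count. No called ratio of the 4 genes changed sign; of 25 called ratios of other listed genes, 1 did on the panel sum, SMAD4 after heteronemin at 0.06, a check added after seeing the data. The cause of these moves was not tested, beyond the shift each scaling adds.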
